A study of Mus musculus with 8 samples.

Results

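*Miat*, *Slain1*, *Insm1*, *Avil*, *Nfasc*, *Reep1*, *Prkg2*, *Acsbg1*, *Padi4* and *Tnfrsf13c* are 10 of the 18990 genes measured in reprogramming mouse embryonic fibroblasts (MEFs). They were chosen as genes foreign to the fibroblast lineage that were lower at day 3 or higher at day 6 in the libraries labelled *siOct4* than in the *siNcor1* libraries. The choice named no cutoff and rested on the knockdown difference at each day, so those differences are given as a description without a test. All 10 had a mean of at least 1 CPM, the reads on a gene scaled to library size, over the 8 libraries and were among the 13866 genes tested.

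The cells of all groups were primary wild-type MEFs of the BL6 strain, which the labels give as reprogrammed at passage 2, that carried the tet-STEMCCA lentivirus, which encodes *Oct4*, *Sox2*, *Klf4* and *c-Myc* (OSKM) under doxycycline control, and a second lentivirus with the rtTA activator. They received a pool of siRNAs at 40 nM and were then induced with doxycycline at 2 µg/mL in medium with chiron, an Alk5 inhibitor, ascorbic acid and LIF. The 4 groups were *siNcor1* and *siOct4*, each collected on day 3 and on day 6, with n = 2 biological replicates each. Transduced cells are a mixed population in which a minority reaches pluripotency, an siRNA pool lowers its target for a limited time, and the counts of *Pou5f1* (*Oct4*), *Sox2*, *Klf4* and *Myc* add up cassette and endogenous transcripts. Libraries with a non-targeting siRNA were not analysed here, so each knockdown is described relative to the other.

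The libraries held 7735742 to 16445192 reads on genes, of which the non-coding *Gm26917* took 15.5% to 16.6% at day 3, 20.3% to 21.7% in *siNcor1* at day 6, and 29.1% and 23.9% in the pair labelled *siOct4* at day 6. The targeted genes were examined before the members. *Ncor1*, a nuclear receptor corepressor, averaged 141 CPM in *siNcor1* and 235 CPM at day 3 in the libraries labelled *siOct4*, a difference of 0.74 ± 0.12 (log2, standard error; limma, Benjamini-Hochberg adjusted p = 0.0139). That call was lost when any of the 4 day 3 libraries was left out (adjusted p between 0.0617 and 0.132) and with no variance trend (0.0806), and at day 6 the difference was −0.04 (adjusted p = 0.815). *Pou5f1*, the target of *siOct4*, averaged 201 CPM in *siNcor1* and 191 CPM in the libraries labelled *siOct4* at day 3, which was not called, and 174 against 601 CPM at day 6, so the label is used below as a name for those libraries only.

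The members have known roles in neurons and other specialised cells. *Nfasc* (neurofascin) is an adhesion molecule of the axon initial segment and node of Ranvier, *Slain1* promotes microtubule plus-end growth, *Avil* (advillin) is an actin-binding protein of sensory neurons in the villin family, and *Reep1* shapes the endoplasmic reticulum of axons. *Insm1* is a zinc finger repressor of neurogenic and neuroendocrine progenitors, and *Miat* is a long non-coding RNA found in nuclei of neurons and retina. *Prkg2* is the membrane-bound cGMP-dependent protein kinase, and *Acsbg1* activates long-chain fatty acids in brain. *Padi4* converts arginine to citrulline in proteins of granulocytes and some stem cells, and *Tnfrsf13c* is the BAFF receptor of B cells. *Oct4*, *Sox2*, *Klf4* and *c-Myc* are transcription factors whose joint expression can turn fibroblasts into induced pluripotent stem cells.

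Since the comparison set for the members is the OSKM cassette, the 250 bases before the RefSeq start site (GRCm38.p6, gene strand, 5′ to 3′) were searched for short motifs of these factors on both strands. Such windows were found for 8 members, with 9 windows because *Nfasc* has a pair of start sites. No window was used for *Insm1* and *Prkg2*. The 4 windows shown are the pair that held a motif, in capitals, and those of *Slain1* and *Tnfrsf13c*, which held none. They are chr9:54661886-54662135 (minus strand) for *Acsbg1*, chr10:127000459-127000708 (plus) for *Avil*, chr14:103649978-103650227 (plus) for *Slain1* and chr15:82224381-82224630 (minus) for *Tnfrsf13c*.
Acsbg1: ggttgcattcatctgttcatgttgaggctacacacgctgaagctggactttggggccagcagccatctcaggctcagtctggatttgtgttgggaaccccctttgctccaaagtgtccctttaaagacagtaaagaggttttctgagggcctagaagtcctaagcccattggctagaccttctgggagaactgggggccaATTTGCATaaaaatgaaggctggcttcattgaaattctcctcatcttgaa
Avil: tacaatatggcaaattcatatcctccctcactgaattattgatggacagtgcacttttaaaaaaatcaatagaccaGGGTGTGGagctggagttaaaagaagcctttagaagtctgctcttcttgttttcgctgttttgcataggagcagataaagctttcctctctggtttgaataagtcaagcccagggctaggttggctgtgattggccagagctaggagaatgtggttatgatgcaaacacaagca
Slain1: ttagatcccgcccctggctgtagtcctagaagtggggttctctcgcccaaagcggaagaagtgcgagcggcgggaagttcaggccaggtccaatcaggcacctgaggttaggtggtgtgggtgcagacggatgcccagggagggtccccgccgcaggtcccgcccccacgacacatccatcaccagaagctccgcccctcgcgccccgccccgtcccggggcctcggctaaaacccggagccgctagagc
Tnfrsf13c: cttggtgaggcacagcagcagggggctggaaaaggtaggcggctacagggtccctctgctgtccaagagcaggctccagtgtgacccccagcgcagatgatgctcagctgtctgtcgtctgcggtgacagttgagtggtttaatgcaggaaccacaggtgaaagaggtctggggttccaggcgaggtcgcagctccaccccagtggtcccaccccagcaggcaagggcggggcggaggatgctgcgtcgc
The octamer ATGCAAAT, bound by OCT4, stood in the *Acsbg1* window on the other strand, where it reads ATTTGCAT, 50 bases before the start. It was found in 1.60% of all 32851 windows. The KLF4 motif GGGTGTGG stood in the *Avil* window 174 bases before the start and in 3.20% of all windows. The SOX2 motif AACAATG (3.29% of all windows) and the E-box CACGTG of MYC (6.02%) were found in 0 of the 9 member windows. Their GC content ran from 42.0% to 67.2% with a median of 53.2%, against a median of 52.4% over all windows. The matches describe letters only.

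Per kilobase of exon, the levels of the members covered a wide range. *Avil* stood at a mean of 44.1 CPM per kb over the 4 groups, above 93.9% of the tested genes. *Insm1* followed at 6.08, *Acsbg1* at 4.27, *Reep1* at 3.02, *Slain1* at 1.84, *Prkg2* at 1.61 and *Tnfrsf13c* at 1.24 CPM per kb. *Padi4* (0.920), *Miat* (0.693) and *Nfasc* (0.455 CPM per kb) were the lowest. The 4 cassette genes lay far above all members, between 130 CPM per kb for *Pou5f1* and 247 for *Klf4*.

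**Figure D1:**
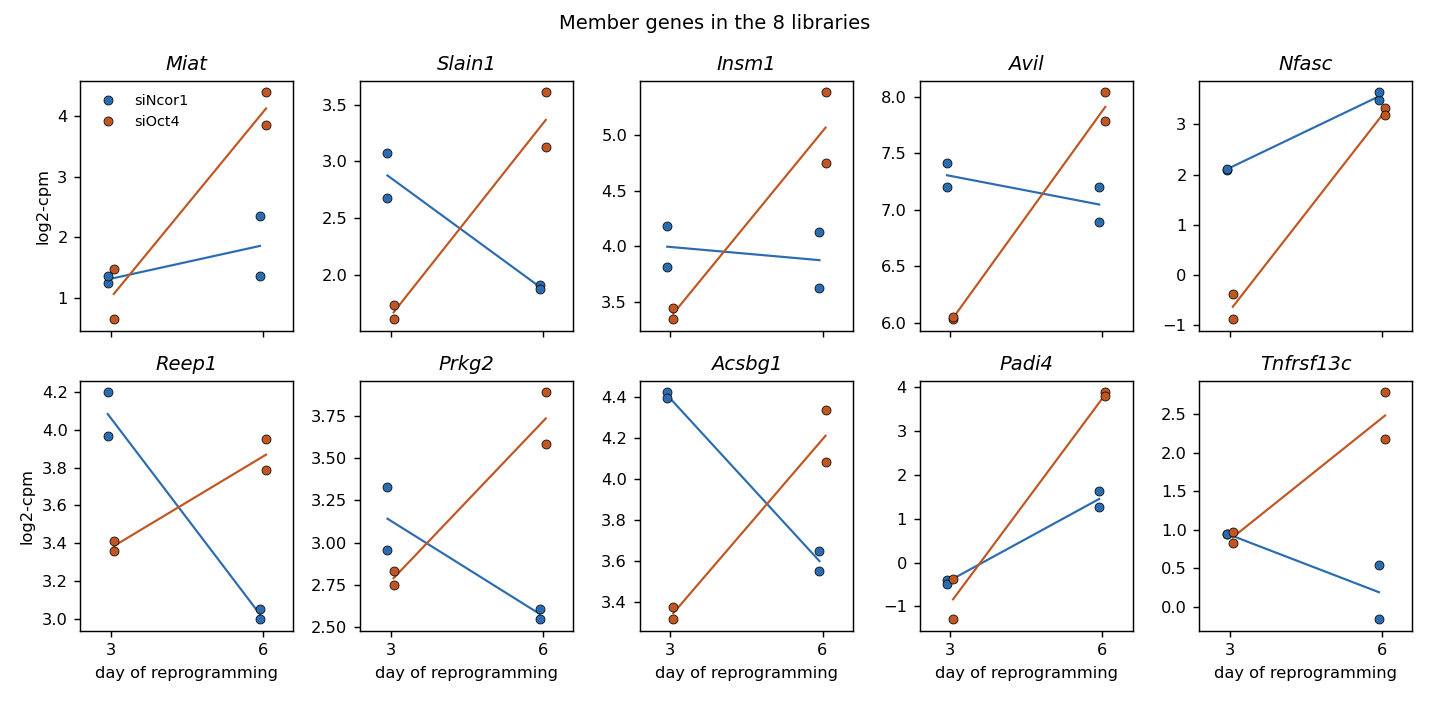
Expression (log2-cpm, own scale in each panel) of the 10 member genes at day 3 and day 6, with a point for each of the 8 libraries and lines through the group means. In 5 panels (*Slain1*, *Reep1*, *Prkg2*, *Acsbg1*, *Tnfrsf13c*) the *siNcor1* points fall and those of the libraries labelled *siOct4* rise, without overlap. In those of *Insm1* and *Avil* the *siNcor1* line slopes down with overlapping points. In the *Nfasc* panel both lines slope up and end at similar levels.

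The genes of neuronal structure and transport were low at day 3 in the libraries labelled *siOct4*. *Nfasc* (chr1:132564690-132741797, minus strand; all gene positions are GRCm38/mm10 from GENCODE M21) measured 2.10 and 2.11 log2-cpm in *siNcor1* at day 3 and −0.88 and −0.38 in the libraries labelled *siOct4*, which rest on 6 and 5 reads. At day 6 it measured 3.48 and 3.63 in *siNcor1* and 3.33 and 3.18 in the libraries labelled *siOct4*. *Nfasc* was thus 6.65-fold lower in the latter at day 3 (−2.73 ± 0.25, log2), and it did not end higher, since its day 6 values also lay below *siNcor1* without overlap (−0.30 ± 0.25). The label of genes raised at day 6 does not hold for it. These are bulk RNA values, in which fewer cells with a transcript and less of it per cell cannot be told apart.

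*Avil* (chr10:127000709-127020994, plus strand, overlapped by *Tsfm* on the other strand) was the most abundant member. It measured 7.20 and 7.41 log2-cpm in *siNcor1* at day 3, 6.03 and 6.05 in the libraries labelled *siOct4*, 7.20 and 6.89 in *siNcor1* at day 6, and 8.04 and 7.78 in the libraries labelled *siOct4*. The difference between the knockdowns turned from −1.26 ± 0.14 at day 3 to 0.86 ± 0.14 at day 6 (log2), with no overlap at either day, while *siNcor1* hardly moved between the days. *Slain1* (chr14:103650228-103704907, plus strand, overlapped by its antisense gene *Slain1os*) followed the same order with a lower *siNcor1* level at day 6 added. Its values were 2.67 and 3.08 log2-cpm in *siNcor1* at day 3, 1.73 and 1.61 in the libraries labelled *siOct4*, 1.91 and 1.87 in *siNcor1* at day 6, and 3.61 and 3.12 in the libraries labelled *siOct4*. Its knockdown difference was −1.21 ± 0.24 at day 3 and 1.47 ± 0.24 at day 6 (log2).

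*Reep1* (chr6:71707561-71810710, plus strand, with *Gm44769* and *Gm44770* inside it on the same strand) had its highest values in *siNcor1* at day 3. It measured 3.97 and 4.20 log2-cpm there, 3.41 and 3.36 at day 3 in the libraries labelled *siOct4*, 3.00 and 3.05 in *siNcor1* at day 6, and 3.95 and 3.79 at day 6 in the libraries labelled *siOct4*. The knockdown difference was −0.70 ± 0.17 at day 3 and 0.84 ± 0.17 at day 6 (log2). Its day difference was −1.06 ± 0.17 in *siNcor1* and 0.48 ± 0.17 in the other pair. Whether the counting used strand is not given in the sources used here, so reads of overlapping genes, here and for *Avil*, *Slain1*, *Nfasc* (*Gm10538*), *Prkg2* (*Gm3470*) and *Miat* (*Gm26953* and 4 further gene models), may be mixed.

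The regulators *Insm1* and *Miat* were higher at day 6 in the libraries labelled *siOct4*. *Insm1* (chr2:146221921-146225020, plus strand) measured 4.18 and 3.81 log2-cpm in *siNcor1* at day 3, 3.45 and 3.34 in the libraries labelled *siOct4*, 4.13 and 3.62 in *siNcor1* at day 6, and 5.39 and 4.75 in the libraries labelled *siOct4*. It was 2.29-fold higher in the latter at day 6 (1.19 ± 0.23, log2) and −0.60 ± 0.23 at day 3, without overlap. *Miat* (chr5:112213228-112229395, minus strand) measured 1.24 and 1.36 log2-cpm in *siNcor1* and 0.64 and 1.48 at day 3 in the libraries labelled *siOct4*, where the groups overlapped. At day 6 it measured 2.35 and 1.36 in *siNcor1* and 4.40 and 3.86 in the libraries labelled *siOct4*, which was 4.84-fold higher (2.27 ± 0.36, log2). The *siNcor1* pair at day 6 differed by nearly 1 on the log2 scale for this gene.

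Of the enzymes, *Padi4* (chr4:140745865-140774236, minus strand) had the widest range. At day 3 it was near the limit of the depth, with 10 and 10 reads in *siNcor1* and 4 and 5 reads in the libraries labelled *siOct4* (−0.41, −0.48, −1.30 and −0.38 log2-cpm). At day 6 it had 36 and 27 reads in *siNcor1* (1.64 and 1.27 log2-cpm) and 138 and 161 reads in the libraries labelled *siOct4* (3.88 and 3.79). *Padi4* was 5.21-fold higher in the latter at day 6 (2.38 ± 0.35, log2) and 25.5-fold above its own day 3 level, while the day 3 difference between the knockdowns was within the spread of the replicates (−0.39 ± 0.35).

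*Prkg2* (chr5:98929773-99037351, minus strand) and *Acsbg1* (chr9:54604877-54661870, minus strand) differed less. *Prkg2* measured 2.95 and 3.33 log2-cpm in *siNcor1* at day 3, 2.83 and 2.75 in the libraries labelled *siOct4*, 2.55 and 2.61 in *siNcor1* at day 6, and 3.58 and 3.89 in the libraries labelled *siOct4*. *Acsbg1* measured 4.42 and 4.39 log2-cpm in *siNcor1* at day 3, 3.32 and 3.38 in the libraries labelled *siOct4*, 3.65 and 3.55 in *siNcor1* at day 6, and 4.34 and 4.08 in the libraries labelled *siOct4*. Neither overlapped between the knockdowns at either day. The difference of *Prkg2* was −0.35 ± 0.20 at day 3 and 1.16 ± 0.20 at day 6 (log2), and that of *Acsbg1* was −1.06 ± 0.16 and 0.61 ± 0.16. *Acsbg1* at day 6 in the libraries labelled *siOct4* thus stood close to the level of *siNcor1* at day 3.

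*Tnfrsf13c* (chr15:82221743-82224369, minus strand), the single surface receptor among the members, differed by less than its standard error at day 3, at 0.95 and 0.95 log2-cpm in *siNcor1* and 0.97 and 0.83 in the libraries labelled *siOct4* (−0.05 ± 0.34). It measured, at day 6, 0.54 and −0.16 in *siNcor1*, on 16 and 9 reads, and 2.79 and 2.19 in the libraries labelled *siOct4*, on 64 and 52 reads. It was 4.91-fold higher in the latter (2.30 ± 0.34, log2), with level values at day 3 and separate values at day 6, as in the cassette genes.

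Read over the members, the choice shows in the counts. The mean of all 10 was lower in the libraries labelled *siOct4* at day 3, and 7 lay wholly below *siNcor1*, a pattern shown by 22.7% of all tested genes. The sign at day 3 turned with quantile normalization for *Padi4* (0.03) and *Tnfrsf13c* (0.02), without *siOct4* day 3 replicate 1 for *Miat* (0.18) and *Padi4* (0.06), and without *siOct4* day 3 replicate 2 for *Tnfrsf13c* (0.02). At day 6, 9 lay wholly above *siNcor1* (29.9% of tested genes) and *Nfasc* wholly below (34.8%). *Slain1*, *Insm1*, *Avil*, *Reep1*, *Prkg2* and *Acsbg1* did both (7.76% of tested genes). Nothing is read from these counts, since the members were chosen by the same values. The group means were highest in the libraries labelled *siOct4* at day 6 for 7 members (30.6% of tested genes), the exceptions being *Nfasc*, *Reep1* and *Acsbg1*. They were lowest in those at day 3 for 7 members (25.4%), the exceptions being *Reep1*, *Prkg2* and *Tnfrsf13c*.

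**Figure D2:**
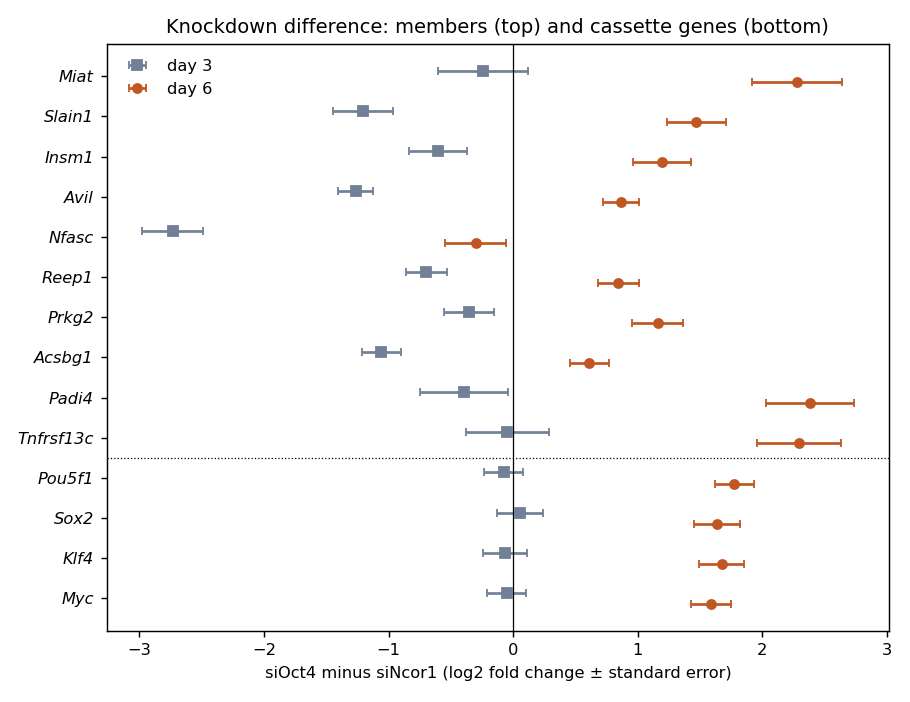
Difference between the libraries labelled *siOct4* and *siNcor1* (log2 fold change ± standard error, n = 2 a group) at day 3 (squares) and day 6 (circles) for the 10 members above the dotted line and the 4 cassette genes below it. The cassette genes start near 0 at day 3 and reach 1.59 to 1.78 at day 6, while 8 members start from −0.35 to −2.73, of which *Padi4* turns to 0.03 with quantile normalization.

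The cassette genes were measured in the same libraries for comparison of the time course. *Pou5f1* was at 7.63 and 7.68 log2-cpm in *siNcor1* at day 3, 7.53 and 7.62 in the libraries labelled *siOct4*, 7.55 and 7.32 in *siNcor1* at day 6, and 9.45 and 8.97 in the libraries labelled *siOct4*. *Sox2*, *Klf4* and *Myc* showed the same course. At day 3, 0 of the 4 differed between the knockdowns (limma, 1.07% of all tested genes were called; 0 of the 4 also at an unadjusted p under 0.05 and with voom). At day 6 all 4 were higher in the libraries labelled *siOct4* (12.1% of tested genes were called higher), by 1.78 for *Pou5f1*, 1.63 for *Sox2*, 1.67 for *Klf4* and 1.59 for *Myc* (log2; limma, adjusted p between 0.000109 and 0.000328). The cassette differences at day 3 lay between −0.08 and 0.05 with standard errors up to 0.19. The means of 8 members differed by 0.35 or more at that day, in values that the choice had used. Among these 8, *Padi4* overlapped between the knockdowns. From day 3 to day 6 the knockdown difference of all 4 cassette genes changed upward by 1.58 to 1.85 (limma interaction, adjusted p between 0.00064 and 0.00229, background 7.77% called higher).

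Between the days, the cassette genes rose in the libraries labelled *siOct4*, by 1.63 for *Pou5f1*, 1.05 for *Sox2*, 1.26 for *Klf4* and 0.96 for *Myc* (log2; all 4 called, background 22.2% called higher). In *siNcor1* their day differences were −0.22, −0.54, −0.48 and −0.68 (log2), without overlap, and 2 of the 4, *Sox2* (limma, adjusted p = 0.0429) and *Myc* (adjusted p = 0.00618), were called (background 20.9% called lower). That count was 0 without *siNcor1* day 3 replicate 2 and without *siNcor1* day 6 replicate 2. It was 1 without any of the other *siNcor1* libraries or either day 3 library labelled *siOct4*, and 3 without either day 6 library labelled *siOct4*. Of the members, *Slain1*, *Reep1*, *Prkg2*, *Acsbg1* and *Tnfrsf13c* had this opposite course, lower at day 6 in *siNcor1* and higher at day 6 in the libraries labelled *siOct4*, both without overlap (4.38% of tested genes). Within *siNcor1* alone 5 members lay wholly lower at day 6 (41.7% of tested genes) and 3 wholly higher (31.4%). All 10 members were higher at day 6 in the libraries labelled *siOct4* (32.7%), by 0.48 ± 0.17 for *Reep1* to 4.67 ± 0.35 for *Padi4* (log2).

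**Figure D3:**
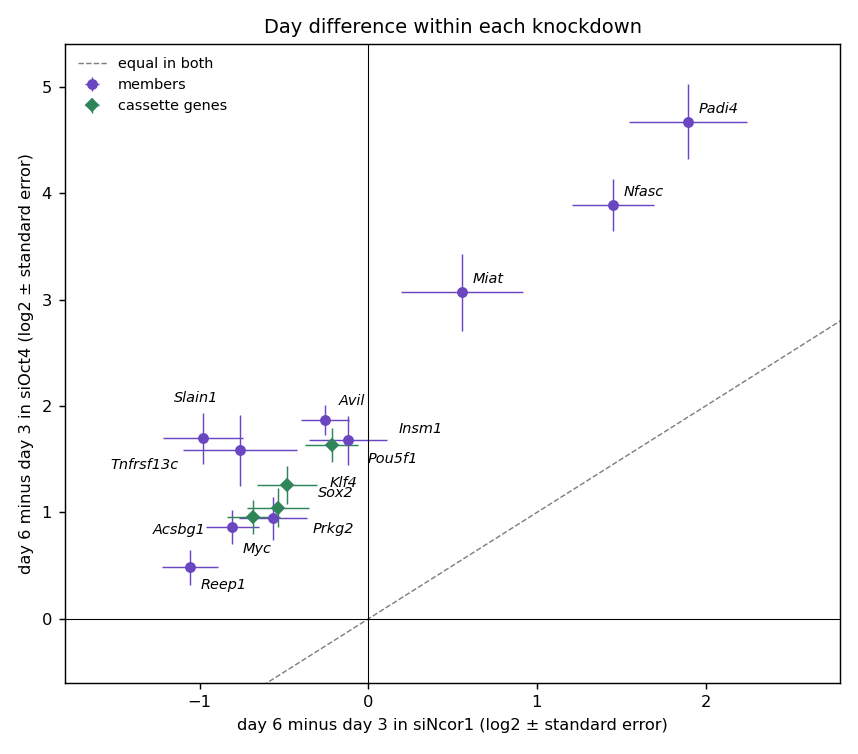
Day 6 minus day 3 in *siNcor1* (horizontal) and in the libraries labelled *siOct4* (vertical), both log2 with standard error, for the members (circles) and cassette genes (diamonds). All points lie above the dashed line of equal change, and *Miat*, *Nfasc* and *Padi4* stand to the right of the cassette genes, with day differences above 0 in *siNcor1*.

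*Miat*, *Nfasc* and *Padi4* differed in course from the cassette in *siNcor1*, where their means were higher at day 6 by 0.55 ± 0.36, 1.45 ± 0.25 and 1.90 ± 0.35 (log2). *Insm1* (−0.12 ± 0.23) and *Avil* (−0.26 ± 0.14) overlapped between the days in *siNcor1*. The members therefore did not follow a single course. In 7 the mean day differences had the signs of the cassette genes, and 5 of these did not overlap between the days in either knockdown. The remaining pair, *Insm1* and *Avil*, overlapped in *siNcor1*. The means of the other 3 were higher at day 6 in both knockdowns. The *siNcor1* values of *Miat* were separated by day only just, since 1 library of each day stood at 1.36 log2-cpm.

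The difference between the days averaged over both knockdowns was tested, a combination of libraries that is uncorrelated with the knockdown difference at either day where all libraries vary alike. The groups did not vary alike. Chi-square per degree of freedom between the reads of replicates was 19.1 in *siOct4* at day 6 and 8.58 to 9.55 in the other groups. The averaged day difference can therefore share noise with the day 6 knockdown difference that the choice used. It is not wholly separate from the choice of the members, since it draws on the same libraries and on the same estimate of the spread, and its day difference within the libraries labelled *siOct4* was above 0 for all 10. By this test 5 of the 10 members were higher at day 6 (limma, adjusted over all 13866 genes) and 0 were lower. Over all tested genes 23.2% were called higher, 33.4% lower and 56.7% in either direction, so a call as such was common. *Padi4* rose by 3.28 ± 0.25 (log2, 9.73-fold, adjusted p = 1.22e-06), *Nfasc* by 2.67 ± 0.17 (6.36-fold, adjusted p = 4.19e-07) and *Miat* by 1.81 ± 0.26 (3.51-fold, adjusted p = 9.84e-05). Smaller rises were found for *Avil* (0.81 ± 0.10, adjusted p = 4.05e-05) and *Insm1* (0.78 ± 0.16, adjusted p = 0.00163). For these 2 the day difference in *siNcor1* alone was −0.26 and −0.12 (log2), so their calls rest on the libraries labelled *siOct4*, whose values entered the choice, and are no separate evidence. That of *Miat* rests mainly on them too, while *Nfasc* and *Padi4* had higher values at day 6 in *siNcor1* as well.

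The other members were not called. The averaged day difference was 0.36 ± 0.17 for *Slain1* (limma, adjusted p = 0.0893), 0.41 ± 0.24 for *Tnfrsf13c* (0.16), 0.19 ± 0.14 for *Prkg2* (0.272), 0.03 ± 0.11 for *Acsbg1* (0.845) and −0.29 ± 0.12 for *Reep1* (0.0535). These are the 5 members whose courses were opposite in the knockdowns without overlap, so that the average combined a negative with a positive day difference. *Slain1* was called higher without *siOct4* day 6 replicate 2 (0.48, limma adjusted p = 0.0279) and with library totals without the most abundant gene (0.46, adjusted p = 0.0375). *Reep1* was called lower without *siOct4* day 6 replicate 1 (−0.33, limma adjusted p = 0.0367), with a mean of at least 10 CPM (adjusted p = 0.0492), quantile normalization (0.034), no variance trend (0.0393) and library totals without normalization factors (0.0386). The median over the 10 members was 0.59, against −0.08 over all tested genes and 0.32 over the cassette. Of the cassette, *Pou5f1* (0.71 ± 0.11, limma adjusted p = 0.0002) and *Klf4* (0.39 ± 0.13, adjusted p = 0.02) were called, *Sox2* (0.26 ± 0.13, adjusted p = 0.117) and *Myc* (0.14 ± 0.11, adjusted p = 0.313) were not. The call of *Klf4* was lost without either *siNcor1* day 3 library, *siNcor1* day 6 replicate 1 or *siOct4* day 3 replicate 1 (adjusted p between 0.0605 and 0.0681) and with no variance trend (0.0521). *Sox2* (0.42, adjusted p = 0.0018) and *Myc* (0.25, adjusted p = 0.0275) were called without *siOct4* day 6 replicate 2, and *Sox2* also with quantile normalization (limma, adjusted p = 0.0121) and with totals without the most abundant gene (0.0341).

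**Figure D4:**
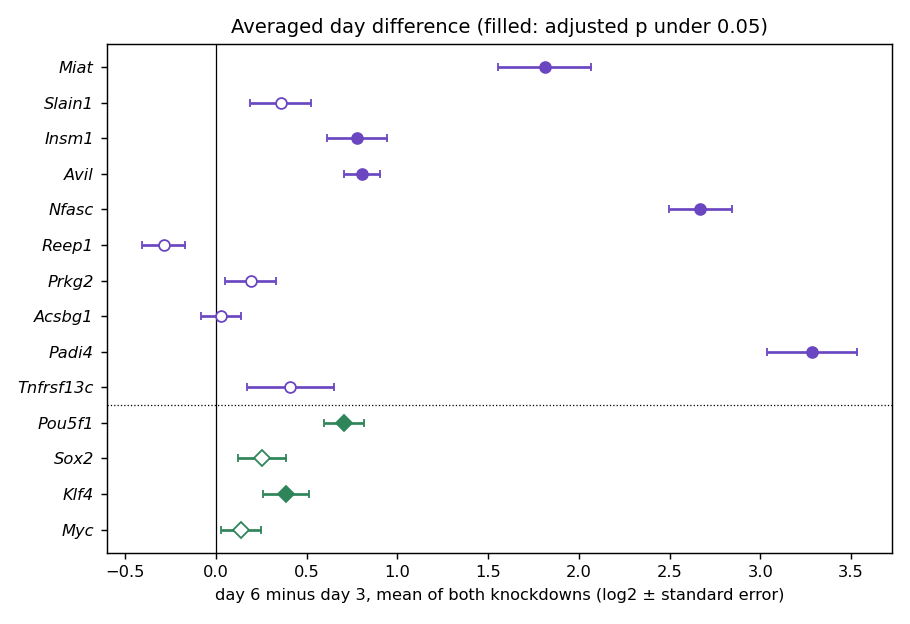
Day 6 minus day 3 averaged over both knockdowns (log2 ± standard error, 8 libraries) for the members (circles) and cassette genes (diamonds), filled where the limma adjusted p was under 0.05. *Padi4*, *Nfasc* and *Miat* stand at 3.28, 2.67 and 1.81, above every cassette gene.

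Whether a member changed by another amount than the cassette was tested by subtracting, in each library, the mean log2-cpm of the 4 cassette genes. Relative to this mean, the day difference of 4 members was higher (8.62% of tested genes) and that of 1 was lower (45.4%), with 54.1% called in either direction. *Padi4* was higher by 2.91 ± 0.29 (log2; limma, adjusted p = 3.86e-08), *Nfasc* by 2.30 ± 0.24 (adjusted p = 7.85e-08), *Miat* by 1.44 ± 0.26 (adjusted p = 8.59e-05) and *Avil* by 0.43 ± 0.18 (adjusted p = 0.0482), while *Reep1* was lower by −0.66 ± 0.20 (adjusted p = 0.00906). *Slain1* (−0.01 ± 0.23, adjusted p = 0.963), *Tnfrsf13c* (0.04 ± 0.28, adjusted p = 0.916), *Prkg2* (−0.18 ± 0.23, adjusted p = 0.518), *Acsbg1* (−0.34 ± 0.20, adjusted p = 0.14) and *Insm1* (0.41 ± 0.20, adjusted p = 0.0889) were not called, which does not show that they moved alike.

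The calls on *Padi4*, *Nfasc* and *Miat* relative to the cassette held without each of the 8 libraries. That of *Avil* was lost without any of the 4 *siNcor1* libraries or either day 3 library labelled *siOct4* (limma, adjusted p between 0.115 and 0.217). It was also lost with no filter (adjusted p = 0.0559), no variance trend (0.0713), log2(CPM + 1) (0.0513) and the replicate block (0.0719), and it rests on the libraries labelled *siOct4* as above. That of *Reep1* was lost without *siNcor1* day 3 replicate 2, *siOct4* day 3 replicate 1 or *siNcor1* day 6 replicate 1 (adjusted p between 0.0507 and 0.0645). Without *siOct4* day 6 replicate 2, 8 members were called, with *Insm1*, *Prkg2* and *Acsbg1* added, and without *siOct4* day 6 replicate 1, 6 were called. Without *siNcor1* day 3 replicate 2, *siOct4* day 3 replicate 1 or *siNcor1* day 6 replicate 1, 3 were called.

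The pair of libraries labelled *siOct4* at day 6 differed in the cassette itself, whose mean was 10.02 log2-cpm in replicate 1 and 9.47 in replicate 2, a gap of 0.55. In the same pair 9 of 10 members were higher in replicate 1, with *Prkg2* the exception, and the median gap of the members was 0.26. Over all tested genes 42.4% were higher in replicate 1 and the median gap was −0.07. The gap of the cassette mean was at most 0.157 in size within the other groups. The choice used the values of both these libraries, so the gap is no separate evidence. With a single pair of libraries it stands as a description.

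Over the 8 libraries, the members varied in how close they stayed to the cassette mean. Pearson's r with it, a description over 8 libraries that share their groups and depth, was 0.983 for *Tnfrsf13c*, and 0.0361% of tested genes had a higher value. It was 0.861 for *Prkg2*, 0.845 for *Miat*, 0.842 for *Insm1*, 0.797 for *Slain1*, 0.689 for *Padi4*, 0.628 for *Avil*, 0.590 for *Reep1*, 0.519 for *Acsbg1* and 0.196 for *Nfasc*. The cassette mean was highest at day 6 in the libraries labelled *siOct4*, whose values entered the choice. Neither r nor its rank among the tested genes is therefore separate evidence. *Tnfrsf13c*, like the cassette, had level values at day 3, its lowest mean in *siNcor1* at day 6 and its highest in the libraries labelled *siOct4* at day 6. *Nfasc*, with its day 3 gap and its higher day 6 values in both knockdowns, was the least alike. Among the members themselves, *Miat* and *Padi4* were closest (r = 0.953) and *Nfasc* and *Reep1* least alike (r = 0.0225).

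For each member, the tested gene outside the members with the highest r over the 8 libraries was named, as a description without a test. It was *Dhrs11* for *Miat* (r = 0.992), *Sox8* for *Padi4* (0.992), *Rabl6* for *Tnfrsf13c* (0.992), *Gcfc2* for *Reep1* (0.990), *Pltp* for *Insm1* (0.987), *Lemd1* for *Nfasc* (0.986), *Upf3b* for *Prkg2* (0.985), *Shisa3* for *Slain1* (0.984), *Miga1* for *Avil* (0.982) and *Plb1* for *Acsbg1* (0.961). Of these, *Sox8* is a transcription factor of neural crest and glia, and *Pltp* transfers phospholipids between lipoproteins. No gene was nearest to more than 1 member.

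Other genes of the members' families and pathways were read from lists, of which 81 of 102 genes were matched to the table and 68 were tested. At day 6, 29 of the 68 differed between the knockdowns, and 24 of these were lower in the libraries labelled *siOct4* and 5 higher (limma, 42.6%, against 30.7% of all tested genes). The count was 16 without *siNcor1* day 6 replicate 1 and 11 without *siNcor1* day 6 replicate 2. At day 3, 1 was called (1.07% of all tested genes), the cGMP phosphodiesterase *Pde9a*, which was −1.58 and was not called without any of the 4 day 3 libraries. The median difference of the 68 at day 6 was −0.26 (log2), against −0.03 for all tested genes. Averaged over the knockdowns, 43 differed between the days, 13 higher and 30 lower at day 6 (56.7% of all tested genes in either direction).

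In the list of the axon initial segment and node (9 tested), where *Nfasc* acts, the sodium channel *Scn8a* was higher at day 6 in the libraries labelled *siOct4* (1.57, limma adjusted p = 0.00848), and gliomedin, *Gldn* (−1.02, adjusted p = 0.0022), and the ankyrin *Ank3* (−0.68, adjusted p = 0.00164) were lower. *Scn8a* was not called without *siNcor1* day 6 replicate 2 (adjusted p = 0.06). Of the proneural and neuroendocrine list 2 genes were tested, and the proneural factor *Neurog2* was higher (1.60, adjusted p = 0.0235) and *Rest*, the repressor of neuronal genes, lower (−0.58, adjusted p = 0.00322). *Neurog2* was not called without *siNcor1* day 6 replicate 2 (0.97, limma adjusted p = 0.233) or *siOct4* day 6 replicate 1 (1.34, adjusted p = 0.105). In the villin and gelsolin family 4 of 5 tested genes were lower, led by *Vill* (−1.59, adjusted p = 0.00091), the actin-severing *Gsn* (−0.81, adjusted p = 0.00137) and *Capg* (−0.52, adjusted p = 0.00956), opposite to *Avil*. *Capg* was not called without either *siNcor1* day 6 library (limma, adjusted p = 0.0744 and 0.0533).

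Among the microtubule plus-end genes (9 tested) 3 were lower and 1 higher at day 6, with *Clip2* at −1.01 (limma, adjusted p = 0.000553), *Mapre3* at −0.60 (adjusted p = 0.0345) and *Clasp2* at 0.39 (adjusted p = 0.0306). Among the genes that shape the endoplasmic reticulum (13 tested) 4 were lower, with *Rtn1* at −1.19 (adjusted p = 0.0376), *Atl3* at −0.97 (adjusted p = 0.00133) and *Reep3*, a relative of *Reep1*, at −0.68 (adjusted p = 0.00287). In cGMP signalling (9 tested) 2 were higher, the clearance receptor *Npr3* (1.68, limma adjusted p = 0.000451) and the guanylate cyclase subunit *Gucy1b3*, and 4 were lower, among them the receptor cyclase *Npr2* (−0.88, adjusted p = 0.000724) and *Prkg1*, the other cGMP-dependent kinase (−0.82, adjusted p = 0.0161). *Mapre3*, *Clasp2*, *Rtn1* and *Prkg1* each lost the call without *siNcor1* day 6 replicate 2 (limma, adjusted p between 0.0657 and 0.328) and without at least 2 other libraries left out in turn.

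The lists of the other members were read in the same way. Of the long-chain acyl-CoA synthetases (8 tested) 3 were lower at day 6, *Slc27a4* (−0.56, limma adjusted p = 0.00984), *Acsl4* (−0.55, adjusted p = 0.0207) and *Acsl5* (−0.52, adjusted p = 0.0266), opposite to *Acsbg1*. Of the BAFF and non-canonical NF-kB genes (8 tested) 3 were lower, *Birc3* (−0.65, adjusted p = 0.019), *Map3k14* (−0.60, adjusted p = 0.0415) and *Nfkb2* (−0.58, adjusted p = 0.00849), opposite to *Tnfrsf13c*. These 6 each lost the call without 1 or more of the day 6 libraries (limma, adjusted p between 0.0659 and 0.171). Of the nuclear splicing partners of *Miat* (5 tested) 0 were called at day 6 by limma and by voom, and 1 had an unadjusted p under 0.05. Of the peptidylarginine deiminases other than *Padi4*, *Padi2* and *Padi3* were under 1 CPM and not tested.

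Markers of the cell types that the members are known from were summed in each library. The 12 of 15 neuron markers matched to the table summed to 172 to 200 CPM in *siNcor1* and 192 to 195 CPM at day 3 in the libraries labelled *siOct4*, and to 247 to 263 and 311 to 314 CPM at day 6. The most abundant of them, the neurofilament *Nefl*, measured 80.3 CPM at day 6 in the libraries labelled *siOct4* and 107 CPM in *siNcor1*, and *Ina* had at most 3 reads in every library. The 4 of 6 sensory neuron markers stand for the cells in which *Avil* is known. At day 6 they summed to 7.43 to 8.32 CPM in *siNcor1* and 14.7 to 16.3 CPM in the libraries labelled *siOct4*. They were led by *Pou4f1* (1.75, limma adjusted p = 0.000456). Of the 3 markers tested, it alone was called at day 6, when 12.1% of all tested genes were called higher. At day 3 their sums were 4.99 to 7.11 and 2.78 to 3.32 CPM in the same order. The 6 of 9 astrocyte and oligodendrocyte markers were led by *Mbp*. At day 6 they summed to 34.1 CPM in both *siNcor1* libraries and 21.0 to 23.8 CPM in the libraries labelled *siOct4*. At day 3 their sums were 24.0 to 27.7 and 22.4 to 23.0 CPM. *Olig1* had at most 3 reads in every library.

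Of the blood cell types, B cells were scarcely detected. The 2 of 7 B cell markers, *Cd79a* and *Pax5*, summed to 0.124 to 1.02 CPM over the 8 libraries, so the values of *Tnfrsf13c* come with few other B cell transcripts. The 4 of 8 granulocyte and macrophage markers were led by *Cd68*. At day 6 they summed to 11.3 to 12.1 CPM in *siNcor1* and 12.1 to 12.8 CPM in the libraries labelled *siOct4*. At day 3 their sums were 6.26 to 8.78 and 6.71 to 10.9 CPM. Fibroblast markers, led by *Col1a1*, were all present. Their sum was 7196 to 7347 CPM in *siNcor1* and 9712 to 11466 CPM at day 3 in the libraries labelled *siOct4*, and 4847 to 5248 and 2666 to 2784 CPM at day 6, when 8 of 8 were lower in the libraries labelled *siOct4* (18.6% of tested genes were called lower). Endothelial markers, led by *Tek*, summed at day 6 to 16.4 to 20.9 CPM in *siNcor1* and 16.7 CPM in the libraries labelled *siOct4*. At day 3 their sums were 40.6 to 44.3 and 41.6 to 41.9 CPM. At day 3, 0 of 8 fibroblast markers were called between the knockdowns by limma and 1 by voom. The fibroblast sum differed between the knockdowns in the opposite direction to the means of most members at each day. Exceptions were *Tnfrsf13c*, level at day 3, and *Nfasc*, lower at day 6 as the sum was. Its part in the values of the members was not tested.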

How the data were processed

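RNA-seq was measured in 8 libraries, 2 biological replicates in each of 4 groups. The authors aligned reads to mm10 with STAR 2.5.2b and deposited log2-cpm values made with edgeR 3.20.9, both named in the submitters' processing notes. The counting tool and annotation are not given in the sources used here. Within a tolerance of 0.1 reads, 100% of the values were whole reads once the constant added before the logarithm was taken off, and 3 reads equal 0.174 to 0.380 CPM. The precision of a group rests on 2 libraries.

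The genes that averaged 1 CPM or more were fitted with limma 3.58.1 (R 4.3.3; lmFit, eBayes with trend, all 4 groups together, Benjamini-Hochberg at 0.05). Knockdown and within-knockdown day differences of the members were described, not tested. The members and lists were chosen with earlier results of these data known. Named genes are the members, the cassette genes, *Ncor1*, of each related list up to 3 genes with the largest knockdown difference among those called at day 6, the most correlated gene of each member, and the most abundant gene of each marker list; *Pde9a*, *Gucy1b3*, *Gm26917* and the further markers named were added after their values were seen. The fit was checked on simulated data.

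Alternatives were other filters, centring, quantile normalization, no trend, log2(CPM + 1), voom on the recovered reads, the replicate block, leaving out each library and, chosen after seeing the data, library totals without normalization factors or without the most abundant gene. Figures were drawn with matplotlib 3.10.9. Libraries with a non-targeting siRNA were not analysed here.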

Additional observations from a re-analysis of the deposited data

Results flagged for a closer look

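The difference between the knockdowns changed from day 3 to day 6 for 26 of the named genes by the interaction term of the fit (limma, adjusted p under 0.05 over all tested genes, of which 7.77% were called higher and 12.9% lower). Apart from the cassette genes and *Ncor1*, these genes were named for a large difference at day 6, which is a term of this change, or as the most abundant of a marker list, so nothing is read from their number. The change is given as the difference at day 6 minus that at day 3, in log2, with both differences for the genes closest to the members' question. It was 1.85 for *Pou5f1*, 1.58 for *Sox2*, 1.74 for *Klf4* and 1.64 for *Myc*, whose differences at day 3 lay between −0.08 and 0.05. It was −0.79 for *Ncor1*, from 0.74 to −0.04. Positive changes were also found for *Neurog2* (3.28), *Pou4f1* (2.50), *Scn8a* (2.44), *Npr3* (1.96) and *Clasp2* (0.57).

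Negative changes were found for *Col1a1* (−1.73, from 0.72 to −1.01), *Clip2* (−1.45), *Vill* (−1.37), *Gsn* (−1.24), *Prkg1* (−1.22), *Atl3* (−1.11) and *Mapre3* (−1.02). Smaller ones were found for *Npr2* (−0.97), *Gldn* (−0.93), *Nfkb2* (−0.90), *Birc3* (−0.85), *Capg* (−0.80), *Reep3* (−0.74), *Ank3* (−0.71), *Slc27a4* (−0.69) and *Rest* (−0.63).

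In 5 members both libraries of *siNcor1* moved down and both of the libraries labelled *siOct4* moved up between the days. The difference of these day differences was 2.68 for *Slain1*, 2.34 for *Tnfrsf13c*, 1.67 for *Acsbg1*, 1.54 for *Reep1* and 1.51 for *Prkg2* (log2). It was not tested, since the members were chosen on these contrasts.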

How the results depend on the processing

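The averaged day difference kept its 5 called members under the other scalings and without each library, with 5 to 6 called (*Reep1* or *Slain1* added), and over all genes the count was 6723 to 8337. With a mean of at least 10 CPM, 3 members were called in the averaged day difference and 2 relative to the cassette mean, because among the members *Insm1*, *Avil*, *Reep1* and *Acsbg1* alone passed that filter. Relative to the cassette mean, 3 to 8 members were called when a library was left out. The cassette genes called between the knockdowns at day 6 and between the days in the libraries labelled *siOct4* were 4 in every leave-out. Between the days in *siNcor1* the count was 0 to 3 in leave-outs, and 1 with no filter, median centring, quantile normalization, no trend, voom, and totals without the most abundant gene; the cause was not tested. For the related genes, leave-outs gave 11 to 29 calls at day 6, 0 to 2 at day 3 and 39 to 49 in the averaged day difference, and at day 3 the count was 0 with a mean of at least 10 CPM and with no trend. The groups share replicate numbers, but the residuals of same-numbered libraries correlated between −0.040 and 0.281 and the sources used here state no shared batch, so the pairing is by number only. With the replicate block, 5 members were called in the averaged day difference and 4 relative to the cassette mean, with *Avil* lost, and 8122 genes in all, 4, 4 and 3 cassette genes, and 32, 1 and 44 related genes in the order given above. No called value changed sign. Of the values not called, the averaged day difference of *Acsbg1* turned to −0.0044 with library totals without normalization factors and lay between −0.036 and 0.092 in leave-outs. Relative to the cassette mean, that of *Tnfrsf13c* turned to −0.32 with quantile normalization, and leave-outs gave −0.098 to 0.18 for *Tnfrsf13c*, −0.11 to 0.079 for *Slain1* and −0.39 to 0.034 for *Prkg2*. At day 3 leave-outs gave −0.031 to 0.14 for *Sox2*, −0.16 to 0.028 for *Klf4* and −0.11 to 0.0044 for *Myc*, and the day 6 difference of *Ncor1* turned to 0.0062 with quantile normalization and was −0.14 to 0.054 in leave-outs. Of the values not tested, the day 3 difference changed sign for *Miat*, *Padi4* and *Tnfrsf13c* as given above, and the *siNcor1* day difference of *Insm1* was −0.37 to 0.13 in leave-outs. Among the named related genes, the day 6 call was lost with no trend for *Mapre3*, *Clasp2*, *Acsl4*, *Acsl5* and *Map3k14*, with no filter for *Rtn1* and *Map3k14*, with median centring for *Map3k14* and with totals without normalization factors for *Clasp2*. The log2(CPM + 1) scale lowered the day 3 difference of *Nfasc* to −1.77 and its day difference in the libraries labelled *siOct4* to 2.78, and that of *Padi4* to 3.39. Depth limits *Padi4* and *Nfasc* at day 3, where libraries held 4 to 10 and 5 to 72 reads.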

Other observations

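General neuronal genes moved in both directions between the knockdowns. Of the 10 neuron markers tested, 4 were called higher at day 6 in the libraries labelled *siOct4* (12.1% of all tested genes) and 2 lower (18.6%). The lower count was thus near the share of all tested genes. The higher genes were the tubulin *Tubb3* (1.71, limma adjusted p = 9.31e-05), the RNA-binding proteins *Elavl3* (1.75, adjusted p = 0.00953) and *Elavl4* (1.07, adjusted p = 0.0208), and the microtubule-associated *Map2* (0.67, adjusted p = 0.012). The lower genes were the neurofilament *Nefm* (−1.47, adjusted p = 0.000319) and the growth cone protein *Gap43* (−0.90, adjusted p = 0.0231). *Tubb3* was already higher in the libraries labelled *siOct4* at day 3 (0.82, limma adjusted p = 0.0202), as was *Stmn2* (0.72, adjusted p = 0.0457), opposite to the members at that day. These were the only 2 of the 10 called at day 3, and 0 were called lower (1.07% of all tested genes were called in either direction). Whether these 2 calls hold with a library left out was not examined. The median difference of the 10 at day 3 was −0.41 (log2), in the direction of the members. Averaged over the knockdowns, 6 of the 10 were higher and 1, *Syt1*, lower at day 6 (limma, background 23.2% and 33.4%).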
